A study of Mus musculus with 12 samples.

Results

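The proteasome genes were taken as all symbols beginning with Psma, Psmb, Psmc, Psmd or Psme followed by a number, without the 3 immunoproteasome subunits Psmb8, Psmb9 and Psmb10. This rule found 40 genes among the 17416 genes listed in both deposited tables. They comprise 16 genes of the 20S core, 20 genes of the 19S cap and 4 activators. Levels are given in FPKM (fragments scaled by transcript length and by library total), which corrects for transcript length. Psma8, a core subunit known from testis, and Psmb11, a core subunit known from thymus, averaged under 1 FPKM and were not tested, which left 38 tested genes. Psma8 ranged from 0.14 to 0.19 FPKM in the H-Ras(G12V) libraries and from 0 to 0.15 FPKM in the others, and Psmb11 ranged from 0 to 0.05 FPKM.

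The proteasome degrades proteins marked with ubiquitin chains. Its 20S core is a barrel of alpha and beta rings with the proteolytic sites on the inner face of the beta rings, and the 19S cap binds ubiquitylated substrates, removes ubiquitin and unfolds the protein with a ring of ATPases. Activators of the Psme family can dock onto the core in place of the cap. In neurons the proteasome acts in protein quality control and in the turnover of synaptic proteins.

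The study sequenced mRNA of primary neurons (C57BL/6 mice) in 12 libraries, 3 in each of 4 groups. In the first pair of groups, H-Ras(G12V), an H-Ras GTPase locked in its active state, was over-expressed from an adeno-associated virus and compared after 10 days with mCherry, a fluorescent protein, in neurons labelled wild type. In the second pair, wild-type neurons given etoposide, a topoisomerase II poison, were compared after 10 days with neurons given its solvent DMSO. The promoter of the virus, the dose of etoposide, the age of the animals and any pooling are not given in the sources used here, and neither is the source of the replicate libraries (separate cultures or not), so the p-values reflect spread among libraries that may be only technical.

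The labels and some libraries need care before the results. In the 6 etoposide and DMSO libraries title and treatment tag name opposite groups. The titles were followed, so every direction holds for the libraries titled etoposide. Etoposide library 3 lay beside DMSO libraries 1 and 2. Its proteasome genes differed from theirs by a median of 0.0506 and 0.0711 (absolute log2 difference), against 0.222 and 0.325 from etoposide libraries 1 and 2. This nearness did not hold for every gene. All 3 etoposide libraries lay below all DMSO libraries for 7 of 8 tested oligodendrocyte-lineage markers and 5 of 9 progenitor and dividing-cell markers. The same held for 1 of 13 neuron markers and 8.17% of all genes. Whether any library is mislabelled was not tested. DMSO library 3 differed from DMSO libraries 1 and 2 by medians of 0.495 and 0.461. In the first table, mCherry libraries 1 and 2 differed by a median of only 0.0482, and mCherry library 3 had 34 of the 38 genes below the mean of these 2. Endogenous Hras stood at 38.41, 51.63 and 33.46 FPKM with H-Ras(G12V) and at 45.94, 42.98 and 44.2 FPKM with mCherry, and this gives no check of the labels because the species of the transgene is not given.

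Core subunits were the most abundant proteasome transcripts. In the mCherry libraries the median level was 162 FPKM over the 14 tested core genes, 108 FPKM over the 20 cap genes and 59 FPKM over the 4 activators. Psmb4, a structural beta-ring subunit, was highest at 243 ± 24.8 FPKM (SD, n = 3). Psmb7, which carries the trypsin-like site, followed at 217 ± 18.3 FPKM, and Psmb3, another structural beta subunit, at 214 ± 27.0 FPKM. These 3 neighbours in the order lie within each other's spread. The lowest tested genes were the activator Psme4 (PA200) at 16.9 ± 1.46 FPKM and the cap assembly chaperones Psmd10 (gankyrin) at 16.98 ± 1.10 FPKM and Psmd9 at 14.2 ± 0.791 FPKM. Psmd5, another assembly chaperone, stood at 36.1 ± 1.64 FPKM. The order of the 38 mean levels was alike in all 4 groups, with Spearman correlations of 0.95 to 0.976 between pairs of groups, given as a description over genes.

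**Figure D1:**
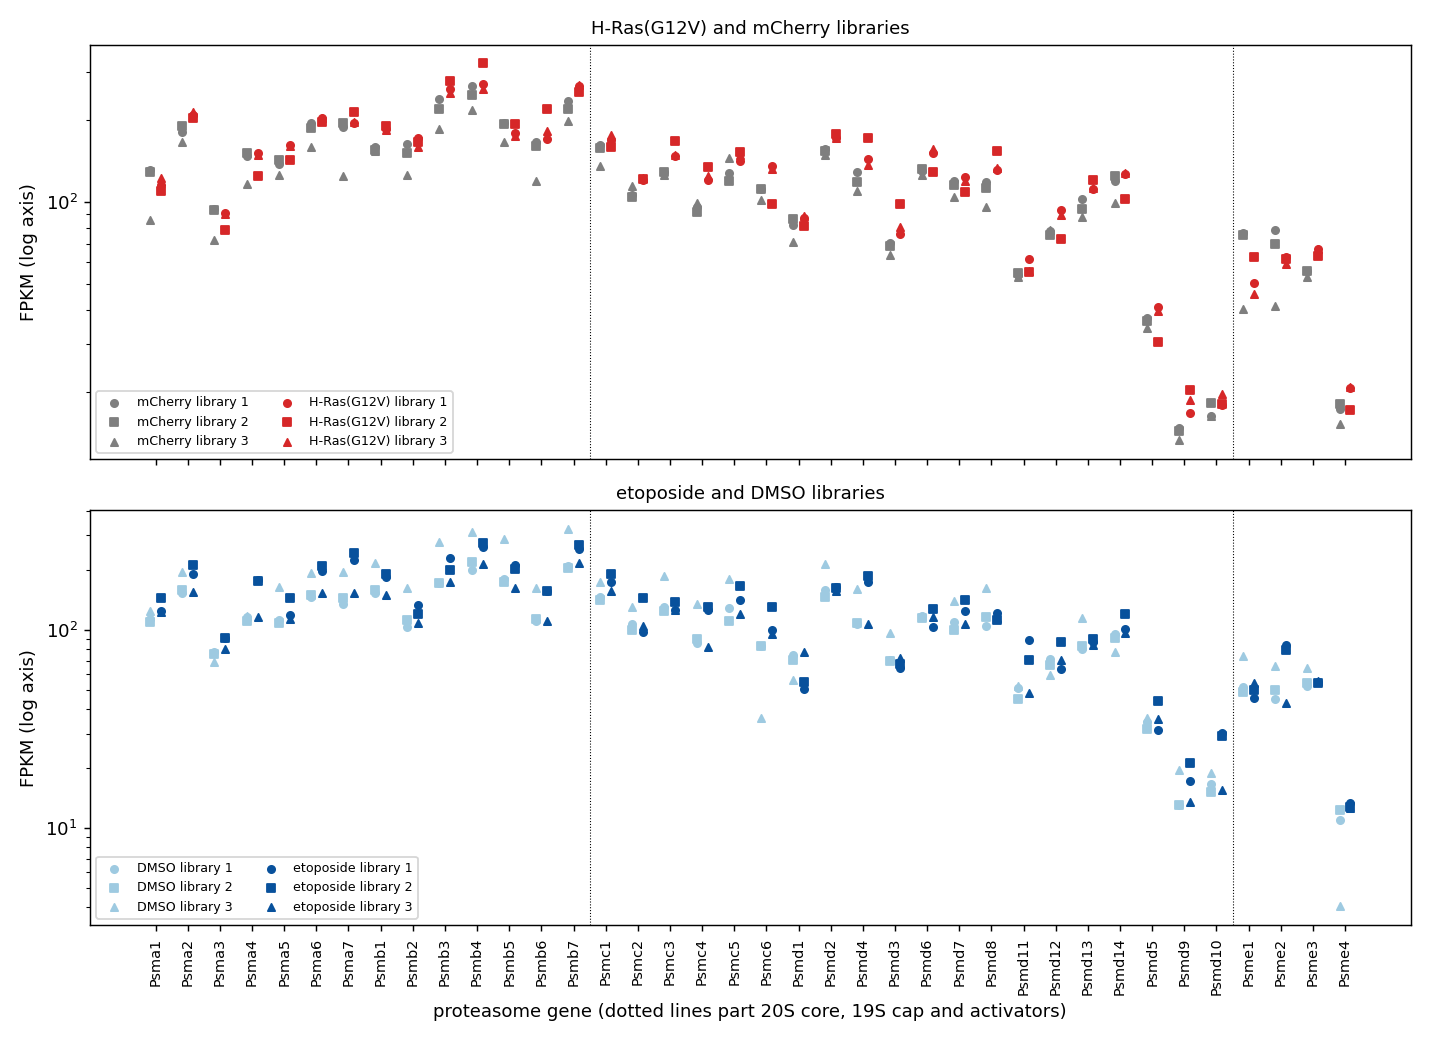
FPKM on a log axis of the 38 tested proteasome genes, one point per library, for the H-Ras(G12V) and mCherry table above and the etoposide and DMSO table beneath. Most core and cap genes sit between 50 and 300 FPKM, with Psmd5, Psmd9, Psmd10 and Psme4 lower in every group.

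Upstream sequence was available for 33 of the 40 genes, in the RefSeq promoter table of build GRCm38.p6, and the 250 bases before each start were searched on both strands. Matches of different motifs were counted separately even where they overlapped. The antioxidant response element core TGACNNNGC, the letters to which NRF1 (Nfe2l1) and NRF2 bind with small Maf partners, was in 5 of 33 genes (15.2%) and in 11.5% of 27025 genes. The CCAAT box was in 39.4% of the proteasome genes and in 37.5% of all genes. The GC box GGGCGG was in 60.6% against 35.4%, and the ETS-type letters CCGGAAG were in 11 of 33 (33.3%) against 7.8%. These matches describe letters only. The 5 upstream stretches with TGACNNNGC are shown with the motif in capitals because they carry the letters of the best known regulators of these genes, and for a motif on the reverse strand the capitals are its reverse complement. Each is written 5′ to 3′ on the strand of the gene.
Psmb5, chr14:54618014-54618062, minus strand: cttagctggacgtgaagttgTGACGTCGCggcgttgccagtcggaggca
Psmb6, chr11:70525328-70525356, plus strand: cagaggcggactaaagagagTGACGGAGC
Psmd9, chr5:123228139-123228187, plus strand: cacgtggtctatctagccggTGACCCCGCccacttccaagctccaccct
Psmc6, chr14:45329577-45329625, plus strand, motif on the reverse strand: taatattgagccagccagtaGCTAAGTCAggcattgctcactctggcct
Psmd12, chr11:107479278-107479309, plus strand, motif on the reverse strand: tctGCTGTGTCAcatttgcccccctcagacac
The motif began 47 bases before the start in Psmb5, which encodes the chymotrypsin-like subunit, 9 in Psmb6, the caspase-like subunit, and 31 in Psmd9. In Psmc6, an ATPase of the cap, and Psmd12, a lid subunit, it lay 227 and 247 bases before the start.

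With H-Ras(G12V), proteasome transcripts stood slightly above mCherry, by amounts that for nearly every gene did not pass the test. Of the 38 genes 36 had a log2 difference above 0, and the median difference was 0.18 on the log2(FPKM + 1) scale. By comparison 55.5% of the 12724 genes tested lay above 0, with a median of 0.05. The count above 0 was 25 of 38 with libraries scaled to a common sum and 29 of 38 with median-of-ratios scaling, where 42.6 and 48.7% of all genes lay above 0. One gene, the ATPase Psmc4, rose, and none fell (limma, Benjamini-Hochberg adjusted p under 0.05 over all genes tested). At this threshold 17% of all genes were called, 10.3% as higher and 6.67% as lower, so the called share of the proteasome genes was below the background. At an unadjusted p under 0.05 the count was 10 of 38, against 34.4% of all genes. The 3 H-Ras(G12V) libraries lay above all 3 mCherry libraries for 19 of the 38 genes, where 23.7% of all genes did so, and below them for none, where 16.6% of all genes did so.

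**Figure D2:**
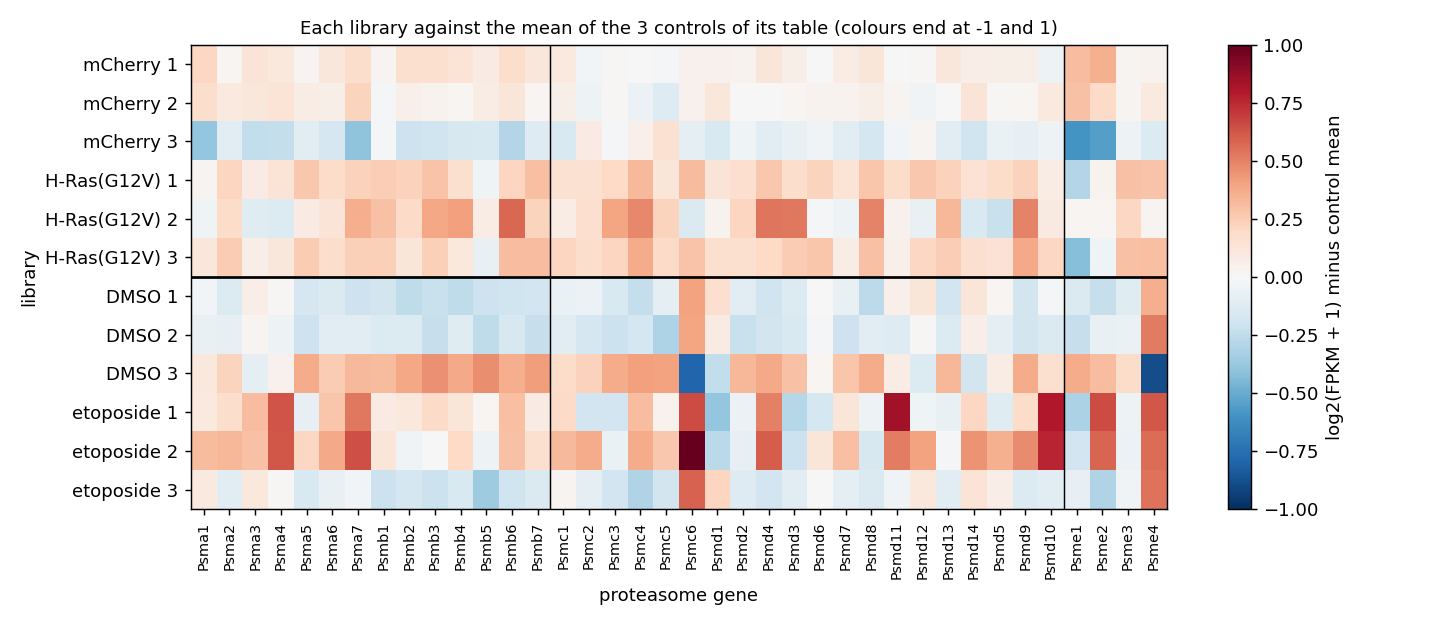
Colours give log2(FPKM + 1) of each of the 38 tested genes in each library minus the mean of the 3 control libraries of its table (mCherry above the thick line, DMSO beneath it). All 3 H-Ras(G12V) rows are mostly red, the etoposide library 3 row resembles the rows of DMSO libraries 1 and 2, and DMSO library 3 is mostly red, with 32 of 38 genes above the mean of the other 2 DMSO libraries.

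Psmc4 encodes an ATPase subunit of the 19S base that helps to unfold substrates. Its levels were 119.78, 134.02 and 124.04 FPKM in H-Ras(G12V) libraries 1, 2 and 3 and 96.04, 92.00 and 99.20 FPKM in mCherry libraries 1, 2 and 3. The groups did not overlap, and the lowest H-Ras(G12V) library was above the highest mCherry library. The log2 difference was 0.39 ± 0.11 (SE), with a 95% interval of 0.14 to 0.64 and a limma adjusted p of 0.0483. The fold of the group means was 1.32. This call stood in 5 of 17 alternative fits, whose adjusted p ranged from 0.000182 to 0.376, and it was lost when any library other than mCherry library 3 was left out. Scaling each library to a common sum of FPKM gave 0.25 with an adjusted p of 0.137.

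The upstream sequence of Psmc4 is shown because it is the member that passed. The capitals mark GGGCGG on the sense strand, 99 bases before the start, and its reverse complement, 73 bases before the start. No TGACNNNGC is in this window of 250 bases.
Psmc4, chr7:28050093-28050342, minus strand: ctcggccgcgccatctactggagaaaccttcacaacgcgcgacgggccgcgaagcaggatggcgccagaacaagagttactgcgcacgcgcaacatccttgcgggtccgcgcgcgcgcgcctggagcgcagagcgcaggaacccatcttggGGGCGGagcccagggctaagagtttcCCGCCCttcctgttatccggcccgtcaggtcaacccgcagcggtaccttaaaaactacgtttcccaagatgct

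Within the core, the catalytic subunits gave the following values. Psmb5, with the chymotrypsin-like site, was at 178.43, 193.46 and 174.79 FPKM with H-Ras(G12V) and at 194.23, 193.12 and 165.15 FPKM with mCherry. Psmb6, with the caspase-like site, was at 170.37, 218.78 and 182.05 FPKM against 165.56, 159.84 and 119.48 FPKM. Psmb7, with the trypsin-like site, was at 266.64, 252.43 and 268.38 FPKM against 233.85, 219.62 and 197.46 FPKM. The groups overlapped for Psmb5 and did not for Psmb6 and Psmb7. None of the 3 passed the limma test: the log2 differences were -0.01 (95% interval -0.30 to 0.27) for Psmb5, 0.37 (-0.04 to 0.77) for Psmb6 and 0.28 (0.0019 to 0.55) for Psmb7, with adjusted p of 0.952, 0.179 and 0.143. The intervals overlap, and the difference between subunits was not tested.

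The remaining core genes spanned a similar range. The median log2 difference was 0.16 over the 7 tested alpha-ring genes, which form the gate of the barrel, and 0.24 over the 4 non-catalytic beta-ring genes, where Psmb3 reached 0.30 and Psmb2 0.18. Psma1, Psma3 and Psma4 were near 0, at 0.03, 0.0075 and 0.04. Without mCherry library 3 these genes stood at -0.16, -0.12 and -0.08, and none was called. In the core, the H-Ras(G12V) libraries lay above all mCherry libraries for 8 of 14 genes, against 23.7% of all genes. These were Psma2, Psma5, Psma6, Psma7, Psmb1, Psmb3, Psmb6 and Psmb7. None of the 14 passed the test, with adjusted p from 0.119 to 0.976.

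In the 19S cap all 20 genes had a log2 difference above 0, with a median of 0.16 and a range from 0.03 to 0.39. Of all genes tested 55.5% lay above 0. The count of cap genes above 0 was 13 of 20 under the common sum, 17 of 20 under median-of-ratios scaling and 17 of 20 without mCherry library 3. The 6 ATPase genes had a median of 0.17 and the 8 lid genes 0.15. Besides Psmc4, the largest differences belonged to the assembly chaperone Psmd9 at 0.37 ± 0.12 (SE), the lid subunit Psmd8 at 0.36 ± 0.13 and the ubiquitin receptor Psmd4 at 0.33 ± 0.14, with adjusted p of 0.0779, 0.107 and 0.131. The H-Ras(G12V) libraries lay above all mCherry libraries for 10 of the 20 cap genes, against 23.7% of all genes. These were Psmc2, Psmc3, Psmc4, Psmd2, Psmd3, Psmd4, Psmd8, Psmd9, Psmd11 and Psmd13. Psmd14, the deubiquitinase that removes chains from substrates, was at 126.3, 102.26 and 127.14 FPKM with H-Ras(G12V) and at 119.37, 124.75 and 99.13 FPKM with mCherry. Its groups overlapped, and the log2 difference was 0.05 (95% interval -0.29 to 0.40, adjusted p = 0.839 by limma).

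The activators showed no common direction. Psme3 (PA28 gamma), a nuclear activator, was at 67.37, 63.18 and 67.27 FPKM with H-Ras(G12V) and at 55.65, 55.66 and 52.81 FPKM with mCherry. Psme4 (PA200), a large nuclear activator, was at 20.76, 17.2 and 20.99 FPKM against 17.31, 18.16 and 15.31 FPKM. The groups did not overlap for Psme3 and overlapped for Psme4. Psme1 and Psme2 encode the 2 chains of the PA28 alpha-beta ring, which is inducible by interferon gamma. Psme1 was at 50.25, 62.73 and 45.71 FPKM with H-Ras(G12V) and at 76.71, 75.86 and 40.57 FPKM with mCherry, and Psme2 was at 62.62, 61.85 and 59.38 FPKM against 78.54, 70.00 and 41.38 FPKM. In mCherry library 3 both were far below the other mCherry libraries, and the H-Ras(G12V) libraries lay between. None of the 4 passed the limma test, with log2 differences of 0.26, 0.20, -0.23 and 0.0042 for Psme3, Psme4, Psme1 and Psme2 and adjusted p of 0.115, 0.316, 0.565 and 0.993.

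**Figure D3:**
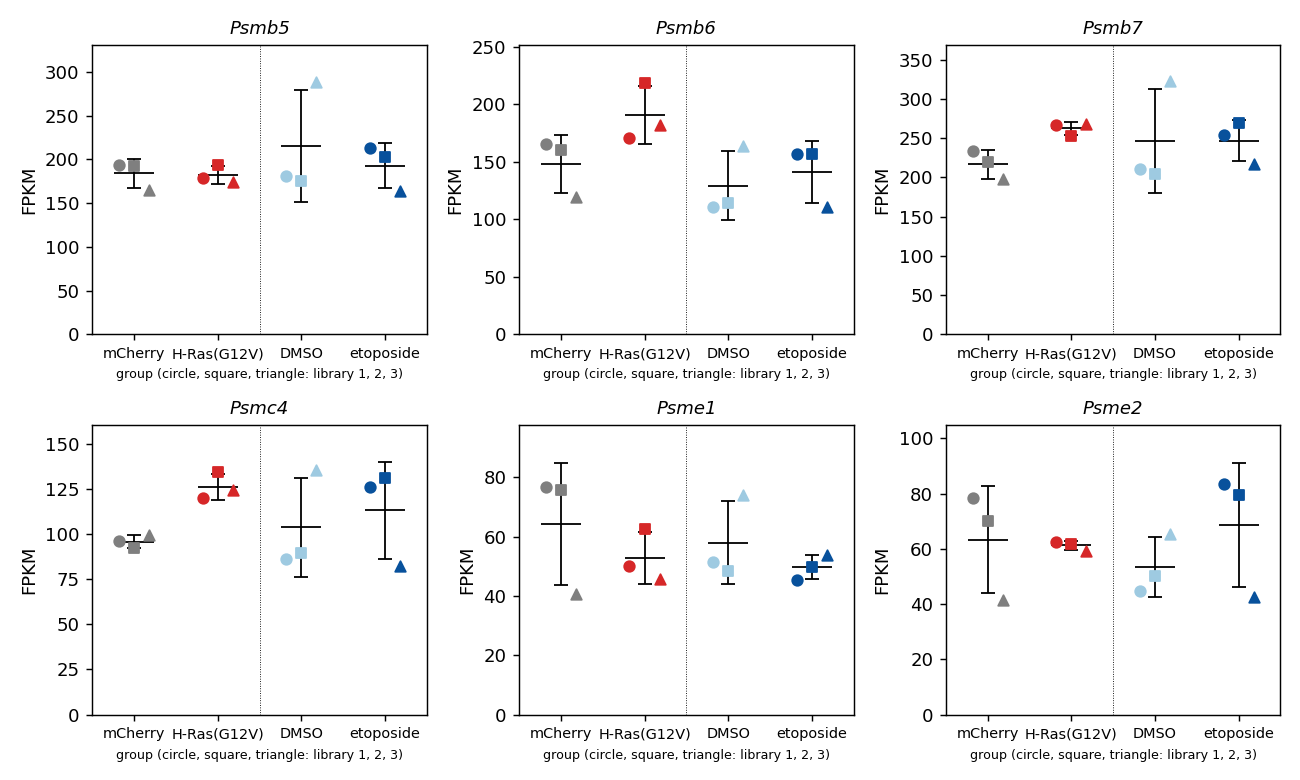
FPKM of 6 proteasome genes in every library (circle, square and triangle for libraries 1, 2 and 3), with the mean as a long line and the SD as error bars for each group of 3, on axes that start at 0. For Psmc4 the H-Ras(G12V) libraries lie above all mCherry libraries, and for Psme1 and Psme2 mCherry library 3 lies far below the other 2.

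Leaving out mCherry library 3 kept Psmc4 as called (log2 difference 0.42, adjusted p = 0.0112 by limma) and added Psme1, which fell by 0.53 on the log2 scale (adjusted p = 0.0182). Without this library 29 of 38 genes were above 0, with a median of 0.14, and 44.9% of all genes tested were called. The summed level of the 40 genes was 5015, 5068 and 5006 FPKM in the H-Ras(G12V) libraries and 4680, 4568 and 3987 FPKM in the mCherry libraries. The sum of all genes in a column was also larger with H-Ras(G12V). As a share of that sum the proteasome genes made up 0.951, 0.931 and 0.938% with H-Ras(G12V) and 0.951, 0.947 and 0.829% with mCherry, and the groups then overlapped. With every library scaled to a common sum the median log2 difference of the 38 genes was 0.04 and that of all genes tested was -0.07, so the gap between them was 0.11 against 0.13 without scaling.

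**Figure D4:**
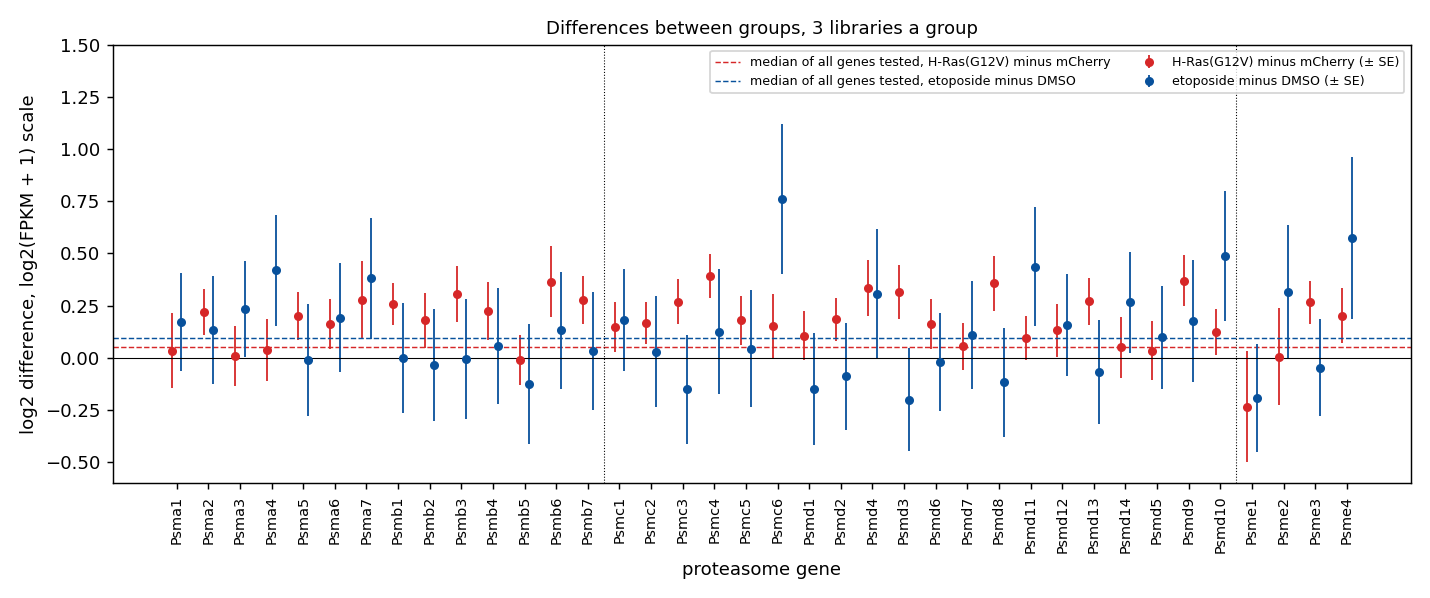
Log2 difference of each of the 38 tested genes with its standard error, H-Ras(G12V) minus mCherry in red and etoposide minus DMSO in blue, on the log2(FPKM + 1) scale. Dashed lines mark the medians of all genes tested, 0.05 and 0.09, and the blue error bars are wider than the red ones.

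With etoposide no proteasome gene passed the test, and the genes were spread around the median of all genes. Of the 38 genes 24 were above 0 and 14 below, where 57% of 12371 genes lay above 0, and the median log2 difference was 0.10 against 0.09 for all genes. Limma called 0.453% of all genes, all of them lower in the libraries titled etoposide, and at an unadjusted p under 0.05 it marked 0 of 38 proteasome genes against 13.9% of all genes. Standard errors ran from 0.230 to 0.386, compared with 0.101 to 0.265 in the H-Ras(G12V) comparison. The etoposide libraries lay above all DMSO libraries for 4 genes, Psma3, Psmc6, Psmd14 and Psme4, and 7.64% of all genes did so. They lay below all DMSO libraries for 0 proteasome genes and for 8.17% of all genes.

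Psmc6 had the largest difference. It was at 99.44, 130.68 and 95.33 FPKM in etoposide libraries 1, 2 and 3 and at 83.29, 83.23 and 35.83 FPKM in DMSO libraries 1, 2 and 3. The groups did not overlap, and DMSO library 3 was far below the rest. The log2 difference was 0.76 ± 0.36 (SE, 95% interval -0.05 to 1.57, adjusted p = 0.368 by limma). Psme4 showed the same layout, at 13.34, 12.72 and 12.57 FPKM against 11.01, 12.39 and 4.04 FPKM, with a log2 difference of 0.57 (adjusted p = 0.459 by limma). Without DMSO library 3 the differences were 0.36 for Psmc6 and 0.13 for Psme4.

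For the catalytic subunits the DMSO groups were wide. Psmb5 was at 212.59, 202.58 and 163.62 FPKM in the etoposide libraries and at 180.99, 175.4 and 288.96 FPKM in the DMSO libraries. Psmb6 was at 156.74, 156.4 and 110.42 FPKM against 110.61, 113.76 and 163.64 FPKM. Psmb7 was at 254.63, 269.1 and 217.62 FPKM against 210.77, 205.06 and 322.62 FPKM. In all 3 genes etoposide libraries 1 and 2 were above DMSO libraries 1 and 2, etoposide library 3 was near or below the latter, and DMSO library 3 was highest in each gene. Log2 differences were -0.13, 0.13 and 0.03 for Psmb5, Psmb6 and Psmb7, with limma adjusted p of 0.831, 0.821 and 0.961.

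Among the other genes followed in each library, Psmc4 was at 125.84, 131.16 and 82.09 FPKM with etoposide and at 86.05, 89.63 and 135.14 FPKM with DMSO. Psmd14 was at 101.3, 119.7 and 96.4 FPKM against 95.02, 91.52 and 77.06 FPKM. Psme3 was at 54.47, 54.13 and 55.1 FPKM against 51.81, 54.02 and 64.29 FPKM. Psmd14 was the only one of these 3 genes whose groups did not overlap. The limma log2 differences were 0.13, 0.26 and -0.05 for Psmc4, Psmd14 and Psme3, with adjusted p of 0.84, 0.561 and 0.926.

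The chains of PA28 alpha-beta parted in etoposide libraries 1 and 2. Psme1 was at 45.56, 49.88 and 53.88 FPKM with etoposide and at 51.56, 48.36 and 74.00 FPKM with DMSO, while Psme2 was at 83.58, 79.52 and 42.71 FPKM against 44.78, 50.01 and 65.49 FPKM. The ratio of Psme1 to Psme2 was 0.545, 0.627 and 1.26 in the etoposide libraries and 1.15, 0.967 and 1.13 in the DMSO libraries. It was 0.803, 1.01 and 0.77 with H-Ras(G12V) and 0.977, 1.08 and 0.98 with mCherry. The 2 low ratios belong to etoposide libraries 1 and 2, and etoposide library 3 had the highest ratio of the 12. Neither gene passed the test, with log2 differences of -0.19 and 0.31 and limma adjusted p of 0.7 and 0.605.

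The result turned on 2 libraries. Without etoposide library 3, limma called Psmd10 (log2 difference 0.78, adjusted p = 0.0325) among the 38 genes and 31.8% of all genes. Without DMSO library 3 it called 0 of 38 genes, also 0 at an unadjusted p under 0.05, and only 0.0322% of all genes. There 34 of 38 genes lay above 0 with a median of 0.20, against 56.2% of all genes and a median of 0.08. With both left out, a choice made after seeing the data, 7 genes rose and none fell, where 36.3% of all genes were called and 22.2% were called higher. In that fit of 2 against 2 libraries the 7 were the assembly chaperone Psmd10 at 0.86, the activator Psme2 at 0.77, the alpha-ring genes Psma7 at 0.75 and Psma4 at 0.64, the ubiquitin receptor Psmd4 at 0.74, the lid subunit Psmd11 at 0.71 and the ATPase Psmc4 at 0.54 on the log2 scale, with adjusted p from 0.0162 to 0.0384. The median was 0.26 against 0.14 for all genes, and 34 of 38 genes lay above 0. Both etoposide libraries lay above both DMSO libraries for 29 genes, against 44.1% of all genes, and below them for Psmd1 and Psmd3, against 31% of all genes. The share of proteasome genes called was again below that of all genes.

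The difference between both effects, H-Ras(G12V) minus etoposide, passed for 0 of the 38 genes in limma over the 12 libraries, and for 0 at an unadjusted p under 0.05, where 3.76% of 12646 genes were called, 3.4% as higher and 0.356% as lower. It lay above 0 for 22 of the 38 genes and for 45.4% of all genes, with a median of 0.12 against -0.06. The median of the 38 genes turned to -0.0066 without DMSO library 3 and to -0.22 under array weights. The lid subunit Psmd3 had the lowest adjusted p, at 0.297, with a difference of 0.52. Without etoposide library 3 the contrast called Psmd10, at -0.66 (adjusted p = 0.0456 by limma), in a fit that called 22.6% of all genes. The 2 tables share no control library.

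In the H-Ras(G12V) and DMSO groups the deviations of the proteasome genes in each library, from the mean of the other 2, went with the base composition of their transcripts. GC content of the longest protein-coding transcript of each gene (GENCODE M21, build GRCm38, not the mm9 of the tables) ran from 37.0% in Psmc6 to 58.3% in Psmd3. In H-Ras(G12V) library 2, the 13 genes of highest GC all lay above the other 2 libraries of the group, with a median of 0.20, and the 13 of lowest GC all lay below, with a median of -0.20. The Spearman correlation with GC over the 38 genes was 0.845, and 0.763 over all genes. In H-Ras(G12V) libraries 1 and 3 it was -0.73 and -0.851, against -0.597 and -0.557 over all genes. In DMSO library 3 the same groups of genes had medians of 0.56 and 0.06, and the correlation was 0.757 against 0.664 over all genes. In DMSO libraries 1 and 2 it was -0.73 and -0.667, against -0.609 and -0.542. In the mCherry and etoposide libraries it lay between -0.267 and 0.282, with -0.0253 in mCherry library 3 and -0.0419 in etoposide library 3. Deviations also correlated with transcript length, at -0.526 in DMSO library 3 (all genes -0.533) and at 0.478 in mCherry library 3 (all genes 0.000528). The H-Ras(G12V) differences themselves correlated with GC at 0.453 over the 38 genes and 0.131 over all genes, and the etoposide differences at -0.543 and -0.203. Within a group the deviations of a gene cancel out, so the correlations of its 3 libraries depend on each other and are not separate observations. All these correlations are descriptions over genes that share libraries, and the part of GC and length in the results was not tested.

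**Figure D5:**
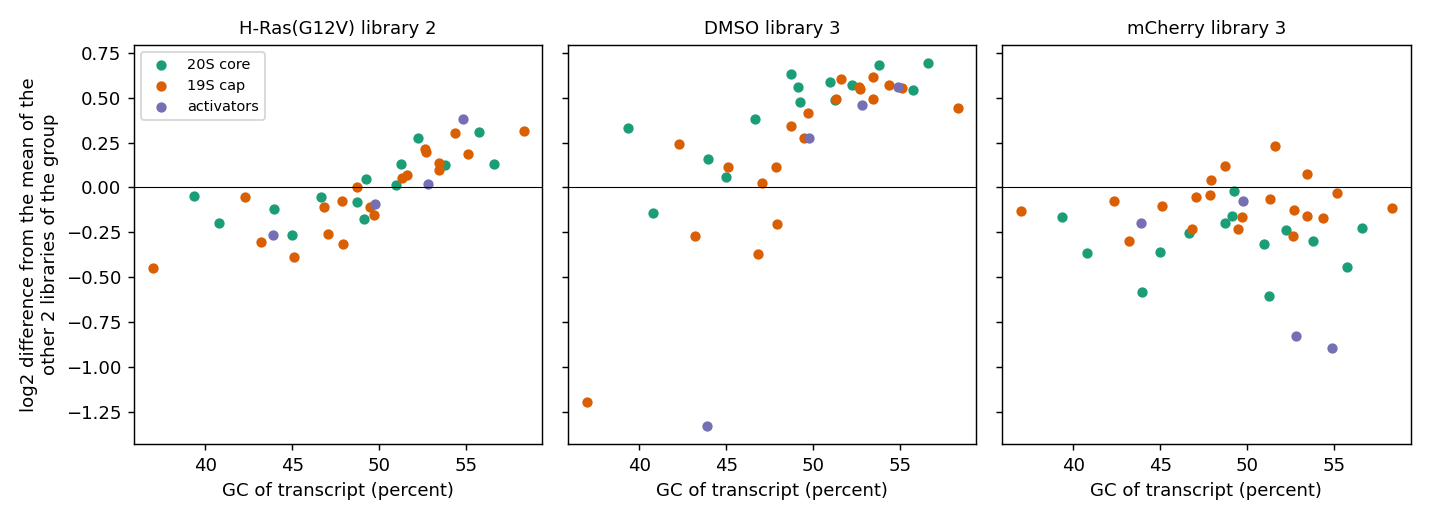
For H-Ras(G12V) library 2, DMSO library 3 and mCherry library 3, the log2 difference of each of the 38 tested genes from the mean of the other 2 libraries of its group is plotted against transcript GC in percent, with colours for the core, the cap and the activators. The points rise with GC in the first 2 panels and do not in the third, where 34 of 38 genes lie below 0.

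Genes that build and feed the proteasome showed a few calls with H-Ras(G12V). Among 8 assembly chaperones and regulators 2 rose and none fell, where 10.3% of all genes were called higher and 6.67% lower. The H-Ras(G12V) libraries lay above all mCherry libraries for 3 of the 8 and below them for 2, against 23.7 and 16.6% of all genes. Pomp, which assists core maturation, was at 312.87, 287.21 and 314.09 FPKM against 237.54, 221.94 and 212.09 FPKM with mCherry, with no overlap, and rose by 0.44 on the log2 scale (adjusted p = 0.039 by limma). Psmg4, a chaperone of the alpha ring, rose by 0.43 (adjusted p = 0.0402). Of 9 cap subunits and partners outside the naming rule, the small lid subunit Sem1 rose by 0.47 (adjusted p = 0.0499) and none fell. In this list the H-Ras(G12V) libraries lay above all mCherry libraries for 1 gene and below them for 3. These calls depended on the fit: of 17 alternatives, 10 lost Pomp, 10 lost Psmg4 and 14 lost Sem1, and all 3 were lost under both scalings (adjusted p from 0.0563 to 0.119).

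Of 20 genes for ubiquitin, E1 enzymes and shuttle factors, Rps27a, a fusion of ubiquitin and a ribosomal protein, rose by 0.62 (adjusted p = 0.039 by limma), and the shuttle Ubqln4 fell by 0.41 (adjusted p = 0.0408). Of 15 genes linked to the control of proteasome transcription, Maff, a small Maf protein, rose by 1.14 and Stat3 by 0.92 (adjusted p = 0.00725 and 0.0386), and none fell. Of 11 tested NRF2 target genes, the redox enzymes Srxn1 and Txnrd1 rose by 1.505 and 0.40 (adjusted p = 0.0418 and 0.0471), and none fell. Each list's share of calls can be set beside the 17% of all genes, 10.3% higher and 6.67% lower. Of 17 alternatives, 10 lost each of Rps27a, Stat3 and Srxn1, 12 lost Txnrd1 and 8 lost Ubqln4, while 1 of 16 lost Maff. Srxn1, Stat3 and Txnrd1 were lost under both scalings.

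Nfe2l1, the transcription factor best known for driving proteasome genes, was at 75.42, 86.44 and 77.13 FPKM with H-Ras(G12V) and at 57.32, 55.89 and 95.06 FPKM with mCherry. It was at 119.28, 112.95 and 89.18 FPKM with etoposide and at 87.81, 77.45 and 98.97 FPKM with DMSO. The groups overlapped in both comparisons, and neither passed (log2 differences 0.24 and 0.28, limma adjusted p of 0.47 and 0.559).

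The immunoproteasome subunits replace the catalytic beta subunits after interferon signalling, and all 3 were far below their constitutive counterparts. Psmb8 was at 2.64, 3.95 and 2.36 FPKM with H-Ras(G12V), 3.14, 3.54 and 1.91 FPKM with mCherry, 1.08, 0.44 and 1 FPKM with etoposide and 0.69, 1.08 and 2.05 FPKM with DMSO. Psmb9 was at 1.77, 4.64 and 2.71 FPKM, 1.78, 2.7 and 1.23 FPKM, 3.51, 4.06 and 2.32 FPKM, and 1.04, 1.7 and 2.02 FPKM in the same order of groups. Psmb10 was at 13.16, 20.15 and 16.7 FPKM, 14.18, 11.97 and 14.33 FPKM, 14.59, 12.78 and 14.65 FPKM, and 15.16, 16.69 and 22.03 FPKM. The etoposide libraries lay above the DMSO libraries for Psmb9 and below them for Psmb10. None of the 3 passed in either comparison, and the lowest limma adjusted p was 0.307 with H-Ras(G12V) and 0.356 with etoposide.

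With etoposide no gene of these 6 lists passed the test. Srxn1 and Maff had the largest differences of their lists, and their values split by library. Srxn1 was at 1027.2 and 908.62 FPKM in etoposide libraries 1 and 2 and at 39.92 FPKM in etoposide library 3. With DMSO it was at 33.31, 34.6 and 42.84 FPKM. Maff was at 46.54, 16.97 and 3.94 FPKM against 1.72, 4.57 and 1.85 FPKM. Both differences missed the threshold (limma adjusted p of 0.353 for each). Of the 12 NRF2 target genes 10 lay above 0, and Gstm1 and Nqo1 lay below, at -0.82 and -0.16. Of 14 tested genes linked to the control of proteasome transcription 11 lay above 0 and 3 below, against 57% of all genes above 0.

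Markers of cell types differed between the groups as well. Sums over 13 neuron markers, none of them at 0, were 1436 to 1700 FPKM with H-Ras(G12V) and 2282 to 2391 FPKM with mCherry. These markers did not move together: 5 had a log2 difference above 0 and 8 below, and limma called 1 higher and 1 lower. Of all genes tested 10.3% were called higher and 6.67% lower, and each marker list can be set beside these shares. Tubb3 was at 110.13 FPKM in mCherry library 3 against 703.76 and 737.07 FPKM in mCherry libraries 1 and 2. Slc17a7 was at 406.61 FPKM against 49.88 and 54.04 FPKM in the same libraries. Astrocyte markers summed to 2603 to 3749 FPKM with H-Ras(G12V), to 1205 and 1212 FPKM in mCherry libraries 1 and 2 and to 3163 FPKM in mCherry library 3, with 3 of 10 called higher. Oligodendrocyte-lineage markers summed to 921.5 to 1120 FPKM against 228.8 to 763.4 FPKM, with 6 of 9 higher. Of fibroblast and mural markers 9 of 10 were called lower, and all 10 together summed to 37.9 to 41.5 FPKM against 188.7 to 278 FPKM. Much of the H-Ras(G12V) sums was Rgs5, at 26.4, 17.76 and 29.13 FPKM, which was not called (log2 difference 0.50). Of progenitor and dividing-cell markers 7 of 10 were called higher. Microglia markers summed to 37.6 to 77.8 FPKM with H-Ras(G12V) and to 19.96 to 36.2 FPKM with mCherry, without overlap, and 2 of 5 tested were called higher. Endothelial markers summed to 1.91 to 2.19 FPKM against 1.52 to 5.14 FPKM, and the 1 tested was not called (adjusted p = 0.0629 by limma). The microglia markers C1qa, C1qc and Itgam were at 0 in mCherry library 3. Of the endothelial markers, Tek was at 0 in mCherry library 1 and Cldn5 in 5 libraries.

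In the second table, neuron markers summed to 763.5, 1671 and 2752 FPKM in etoposide libraries 1, 2 and 3 and to 2210 to 2437 FPKM with DMSO, with 0 of 13 called and 2 at an unadjusted p under 0.05 by limma. Oligodendrocyte-lineage markers summed to 118.4, 77.94 and 220 FPKM against 539.1 to 908 FPKM, with 3 of 8 called lower. Of progenitor and dividing-cell markers 3 of 9 were called lower, where 0.453% of all genes were called, all lower. The latter list was mixed: 7 markers lay below 0, and Nes and Vim lay above, at log2 differences of 0.82 and 1.00, neither called. Astrocyte markers summed to 630.7 to 990.4 FPKM against 1051 to 1628 FPKM, fibroblast and mural markers to 92.3 to 451.8 FPKM against 138.7 to 421 FPKM, and microglia markers to 35.6 to 168.6 FPKM against 24.0 to 80.0 FPKM, with 0 called in each of these lists. Endothelial markers summed to 0.51 to 5.4 FPKM. Markers at 0 were Cx3cr1 in DMSO library 3, P2ry12 and Acta2 in etoposide library 2, Mag in etoposide library 3, and Cldn5 in DMSO library 2 and etoposide libraries 2 and 3. In these bulk samples fewer cells of a type and less RNA per cell cannot be told apart, and the part of cell makeup in the proteasome values was not tested.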

How the data were processed

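In all, 12 mRNA libraries were read from 2 deposited tables, 1 per pair of groups, of 18223 and 17800 genes. The authors deposited FPKM values per gene and library, per the file headers. HISAT, Bowtie2, RSEM and build mm9 appear in the submitters' processing notes, without versions or roles. No read counts were used, so no counting interval can be printed and depth was not analysed here.

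Two-sided tests were run on log2(FPKM + 1) with limma 3.58.1 (R 4.3.3), using lmFit and eBayes with a trend. Genes averaging at least 1 FPKM over the libraries fitted entered, with Benjamini-Hochberg adjustment over all genes tested and a threshold of 0.05. Differences on this scale understate the change of low genes. Each table was fitted alone, and the difference between both effects was fitted over the 12 libraries. The fit was tested on simulated data. Levels of genes are compared per length, as FPKM.

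The proteasome genes and the other lists were chosen with earlier results of these data known. Named genes were the fixed subunits Psmb5, Psmb6, Psmb7, Psmc4, Psmd14, Psma8, Psmb11 and Psme1 to Psme4, members and list genes that passed with the largest differences, members under 1 FPKM, Psmb8, Psmb9, Psmb10 and Nfe2l1. Others named for size or non-overlap, such as Psmc6, were chosen after their values were seen. Groups followed the titles. Library numbers were not taken as pairs. Alternatives changed the pseudocount, filter, scaling, fit, weights and the libraries kept.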

Additional observations from a re-analysis of the deposited data

How the results depend on the processing

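Psmc4 was the only proteasome gene called with H-Ras(G12V). The count fell from 1 to 0 with a mean of at least 5 FPKM and with libraries scaled to a common sum or by median of ratios. It also fell to 0 in the single fit of the 12 libraries, with mCherry libraries 1 and 2 averaged and without the trend. These fits called 3.92 to 17.2% of all genes. Array weights gave 24 called genes with H-Ras(G12V) (21 higher, 3 lower), 26 with etoposide (25 higher, 1 lower) and 14 for the difference between effects (1 higher, 13 lower), in fits that called 71, 74.5 and 58.8% of all genes. Leaving out 1 library gave 0 to 2 called genes with H-Ras(G12V), 0 to 1 with etoposide and 0 to 1 for the difference. In the same order, these fits called 3.9 to 44.9%, 0.0322 to 31.8% and 2.2 to 22.6% of all genes. Without both etoposide library 3 and DMSO library 3, 7 genes were called, and 36.3% of all genes. The median log2 difference was 0.0389 with H-Ras(G12V) under the common sum and 0.344 with etoposide under array weights. The cause of these moves was not tested.

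With the replicate number as a block, 0 proteasome genes were called in all 3 contrasts (Psmc4 adjusted p = 0.137 by limma), and 1681 against 2161 genes overall with H-Ras(G12V), 12 against 56 with etoposide and 345 against 475 for the difference. Deviations of genes from their group mean correlated between same-numbered libraries at -0.0387, 0.0343 and 0.119 in the first table. In the second table these deviations correlated at -0.265, -0.171 and -0.151. The numbers were not taken as pairs, and with 3 libraries a group these values cannot settle whether a pairing exists.

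Signs of single genes near 0 reversed, all above the threshold except Psme2 under array weights (adjusted p = 0.00609). With H-Ras(G12V), Psmd14 became -0.0893 and -0.0209 under the common sum and median of ratios and ranged from -0.0483 to 0.153 with 1 library left out. Psme2 became -0.135, -0.0668 and -0.283 under the common sum, median of ratios and array weights and ranged from -0.271 to 0.183 with 1 left out. Psmb5 became 0.0255 with mCherry libraries averaged and ranged from -0.0888 to 0.0275 with 1 left out. With etoposide, Psmb7 became -0.0742 and -0.0642 under the scalings and ranged from -0.0831 to 0.243 with 1 left out. Psmb5 became 0.155 with array weights and 0.219 without both libraries 3 and ranged from -0.253 to 0.105 with 1 left out. Psme3 became 0.0432 and 0.0369 in the same fits and ranged from -0.109 to 0.0438. The H-Ras(G12V) libraries lay above all mCherry libraries for 9 genes under the common sum (15.9% of all genes), and without mCherry library 3 for 20 genes (38.1%) and below for 4 (31%). The etoposide libraries lay above all DMSO libraries for 1 and 2 genes under the scalings (7.55 and 7.96% of all genes), for 14 without DMSO library 3 (13.8%) and for 12 without etoposide library 3 (36.1%), where 2 lay below (23.5%). Read depth could not be weighed from FPKM.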

Other observations

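Proteasome transcripts varied less between libraries, by the median, than all genes in 3 of the 4 groups. The median coefficient of variation over 3 libraries was 5.8% for the 38 tested genes against 12.4% for all genes with H-Ras(G12V), 8.31% against 15.4% with mCherry and 13.8% against 31.8% with etoposide. With DMSO it was 20.5% against 19.98%. All genes here means every gene averaging at least 1 FPKM. No genes matched for level were compared, so whether the smaller spread goes with the high level of these genes was not tested. The steadiest were Psmc2 with H-Ras(G12V) (0.829%), Psmc3 with mCherry (1.32%), Psmd6 with DMSO (1.36%) and Psme3 with etoposide (0.902%), and the widest were Psmc6 (17.1%), Psme1 (32.0%), Psme4 (48.9%) and Psme2 (32.8%) in the same order of groups.

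The ratio of summed core to summed cap FPKM was 1.20, 1.24 and 1.19 with H-Ras(G12V), 1.27, 1.27 and 1.11 with mCherry, 1.11, 1.17 and 1.29 with DMSO and 1.29, 1.19 and 1.13 with etoposide. The groups overlapped in both comparisons. Core genes summed to 2014 FPKM in mCherry library 3 against 2494 and 2429 FPKM in the other mCherry libraries, while cap genes summed to 1823 FPKM against 1959 and 1918 FPKM.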
